A study of Chlamydomonas reinhardtii with 27 samples.

Results

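The comparison described here set 3 samples of the green alga *Chlamydomonas reinhardtii* collected after 12 h in 200 mM NaCl against 3 control samples cultured without NaCl. These are 6 of the 27 libraries of a time course with 9 conditions, and the 3 libraries at 8 h and the 3 at 24 h of the same NaCl treatment were used to show where 12 h differed from its neighbours. All cells were the wild-type strain GY-D55, grown in BG-11 medium with alternating light and dark to the mid-logarithmic phase, and the salt reached the treated cultures in added medium. RNA with poly(A) tails was sequenced, and the authors counted reads for 19267 identifiers, of which 16443 had enough counts to be tested. The control was a single group whose sampling time was not given in the sources used here, so salt cannot be told apart from the age or dilution of the culture or from the time of day. In bulk RNA a change in every cell cannot be told apart from a change in a share of the cells. The labels describe triplicates without naming separate cultures, and the p-values therefore measure the spread between these samples, which may be technical.

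Salt draws water out of a cell, and *Chlamydomonas* is known to answer by accumulating glycerol, made from starch and glycolysis intermediates, as a solute that balances the outside. High salt is also known to disturb the photosynthetic machinery of the chloroplast, to raise reactive oxygen species, and to burden the folding of proteins in the endoplasmic reticulum. The study names 41 genes by identifier, for these and related processes, as transcription factors or as a reference gene, and they are described below by role. It discusses some of them for their change in these libraries and lists others to compare with earlier salt studies. Their counts are therefore not independent evidence of a direction.

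Depth was similar in both groups. Total counts were 18944783, 17683189 and 21292760 in the 12 h samples, against 22528201, 18771094 and 17126549 in the control samples. The 50 genes with the most counts took 25.0% to 27.7% of the counts at 12 h and 22.6% to 28.9% in control. The spread between replicates was smaller at 12 h, with a biological coefficient of variation of 0.128, against 0.299 in control.

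At 12 h, 4231 genes were upregulated and 4025 were downregulated against control. DEGs were called with edgeR's quasi-likelihood test at a Benjamini-Hochberg adjusted p below 0.05, and the values in the text are counts per 1000000 counts of the library, scaled with TMM (CPM), with fold changes as log2 ± SE. DEGs were 50.2% of the genes tested, with 25.7% up and 24.5% down, and these shares are the background against which each group of genes below is read. The median log2 fold change over all genes tested was -0.03, and the median absolute log2 fold change was 0.81. The 12 h and control samples did not overlap for 4126 of the upregulated and 3865 of the downregulated DEGs, and this was true of 60.9% of all genes tested. Large changes ran in both directions, with 252 DEGs above 4 and 208 below -4 on the log2 scale.

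**Figure D1:**
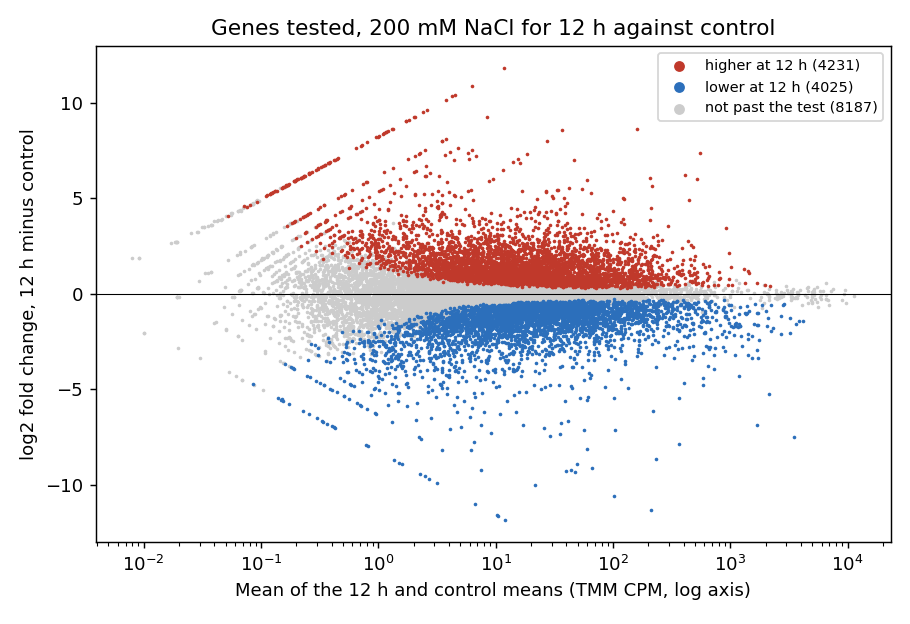
Each point is 1 of the 16443 genes tested, with its mean level (CPM, log axis) on the x axis and its log2 fold change, 12 h minus control, on the y axis. Red points are the 4231 upregulated DEGs, blue points the 4025 downregulated DEGs and grey points the genes that did not pass the test, and genes at the lowest and highest levels are mostly grey.

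The 2 *GPDHp* genes of glycerol synthesis had the largest log2 fold changes of the 41 genes named by the study. Of 6 genes for starch breakdown and glycerol, 5 were upregulated and 1 did not pass, with a median log2 fold change of 0.73. The study gives both *GPDHp* genes as glycerol-3-phosphate dehydrogenases, which reduce dihydroxyacetone phosphate to the precursor of glycerol. It labels CHLREDRAFT_146946 as a fragment. *GPDHp* CHLREDRAFT_146945 had 787, 894 and 901 CPM in the 12 h samples, against 36.4, 27 and 21.8 CPM in control. All 3 salt samples lay far above all 3 control samples, a difference of 4.92 ± 0.23 (edgeR adjusted p = 1.3e-15), or 30.3-fold. *GPDHp* CHLREDRAFT_146946 had 421, 394 and 399 CPM at 12 h, against 18.3, 19.4 and 14.9 CPM in control, a log2 fold change of 4.52 ± 0.30 (edgeR adjusted p = 1.3e-12).

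Per gene length, the pair differed less at 12 h than in their counts. Their FPKM values averaged 275 ± 20.6 for CHLREDRAFT_146945 and 184 ± 6.7 for CHLREDRAFT_146946 in the 12 h samples, against 9.46 ± 2.38 and 8.35 ± 1.08 in control (SD, n = 3 each). In the order of genes of the reference assembly v5.5, the pair stand close together with 2 gene models between them, neither of which matched a deposited identifier. Reads shared between such related genes may have been split or lost in the counting.

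The level at 12 h was also set against the neighbouring times. *GPDHp* CHLREDRAFT_146945 was higher at 12 h than at 8 h by 1.12 ± 0.19 and than at 24 h by 1.26 ± 0.20, and both differences passed the test (edgeR adjusted p = 7.0e-05 and 3.3e-05). Its mean was 748 CPM at the first time point of 2 h and 798 CPM at 4 h, then 396 CPM at 8 h, 861 CPM at 12 h and 360 CPM at 24 h. CHLREDRAFT_146946 averaged 34.6 CPM at 2 h, 69.4 CPM at 4 h, 291 CPM at 8 h, 405 CPM at 12 h and 247 CPM at 24 h. It was higher at 12 h than at 8 h by 0.48 ± 0.26 and than at 24 h by 0.71 ± 0.26 on the log2 scale. Neither difference passed the test (edgeR adjusted p = 0.19 and 0.056), the latter narrowly. The difference in course between the 2 genes was not tested.

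The other genes of the glycerol route moved less. *GPD1* (CHLREDRAFT_94229), a further glycerol-3-phosphate dehydrogenase, had 30.8, 35.3 and 24.0 CPM at 12 h, against 19.6, 18.4 and 20.7 CPM in control, and rose by 0.62 ± 0.16 (edgeR adjusted p = 0.0020). *AMY1* (CHLREDRAFT_173725), the alpha-amylase that opens starch breakdown, had 178, 180 and 166 CPM at 12 h, against 109, 109 and 155 CPM in control, and rose by 0.49 ± 0.16 (edgeR adjusted p = 0.013). The lowest 12 h sample of *AMY1* was only slightly above the highest control sample. *GS1* (CHLREDRAFT_184987), the homolog of the phosphatase that releases glycerol in higher plants, was low, with 4.74, 5.84 and 5.23 CPM at 12 h, against 1.71, 2.72 and 4.44 CPM in control. Its rise of 0.84 ± 0.31 (edgeR adjusted p = 0.027) rested on few counts. Without control replicate 1 it was 0.61 (edgeR adjusted p = 0.13), and the call was also lost at 0.76, 0.85 and 0.82 without 12 h replicate 2, 12 h replicate 3 and control replicate 2 (edgeR adjusted p = 0.081, 0.054 and 0.063) and at 0.86 in a fit of the 6 libraries alone (edgeR adjusted p = 0.075). Triosephosphate isomerase (*TIM*, CHLREDRAFT_26265), which makes dihydroxyacetone phosphate, had 168, 150 and 160 CPM at 12 h, against 182, 137 and 140 CPM in control, and the groups overlapped.

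Outside that route, the 3 pyruvate kinase genes that the study names all rose, and their enzymes catalyse the last step of glycolysis. Any other pyruvate kinase genes were not looked for. Pyruvate kinase CHLREDRAFT_196263 had 102, 103 and 105 CPM at 12 h, against 39.5, 39.0 and 50.0 CPM in control, a difference of 1.27 ± 0.14 (edgeR adjusted p = 1.5e-08). The log2 fold changes were 0.89 for CHLREDRAFT_118203 and 0.70 for CHLREDRAFT_196261, both DEGs. Biotin carboxylase (CHLREDRAFT_122970), a subunit of the enzyme that commits carbon to fatty acid synthesis, went the other way. It had 39.3, 28.6 and 36.9 CPM at 12 h, against 60.1, 67.8 and 115 CPM in control, and fell by 1.21 on the log2 scale (edgeR adjusted p = 8.9e-05).

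UDP-sulfoquinovose synthase (CHLREDRAFT_27658), which makes the head group of the thylakoid sulfolipid, had 232, 228 and 224 CPM at 12 h, against 177, 129 and 124 CPM in control. It rose by 0.67 ± 0.16 (edgeR adjusted p = 0.00080). The 12 h level was above that at 8 h by 2.03 on the log2 scale and above that at 24 h by 0.64, and both differences passed the test.

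Photosynthesis genes were lower. Of 10 named by the study, 8 were downregulated and 2 did not pass, with a median log2 fold change of -1.67, and downregulated DEGs were 24.5% of all genes tested. The light-harvesting proteins of photosystem I, which pass absorbed energy to its reaction center, fell the most of these 10. CHLREDRAFT_187025 had 68.0, 84.1 and 86.1 CPM at 12 h, against 874, 680 and 1047 CPM in control, a difference of -3.45 ± 0.22 (edgeR adjusted p = 3.8e-13), or 10.9-fold lower. CHLREDRAFT_136294 had 289, 353 and 339 CPM at 12 h, against 2314, 1911 and 2359 CPM in control, a difference of -2.75 ± 0.21 (edgeR adjusted p = 1.4e-11). The highest salt sample was several times below the lowest control sample for both.

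**Figure D2:**
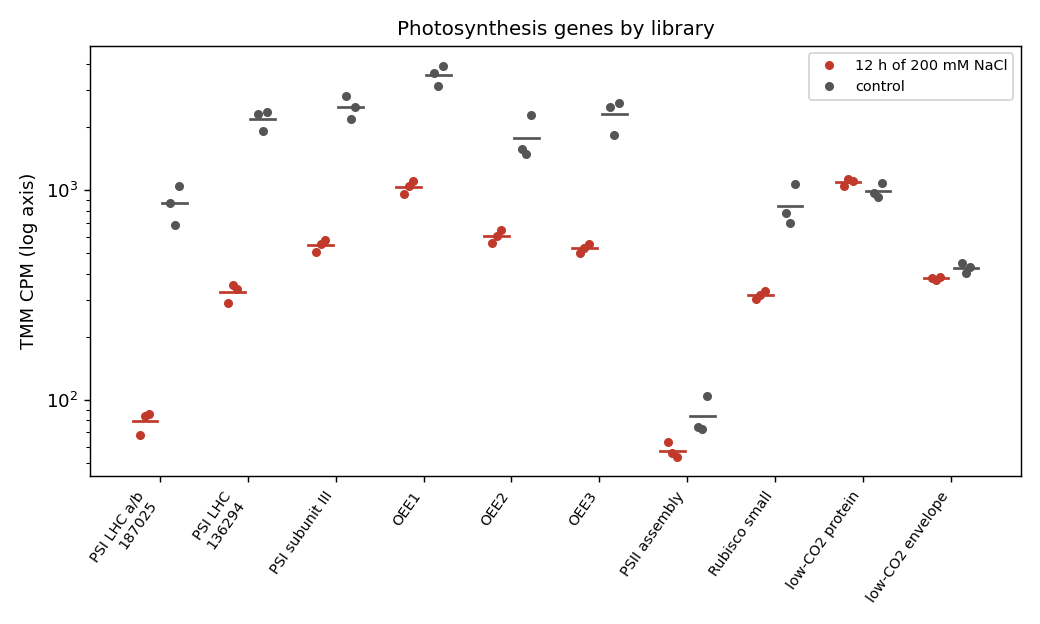
The level of the 10 photosynthesis genes in each library is plotted (TMM CPM, log axis), with the 3 samples at 12 h in red to the left of the 3 control samples in grey and a line at each mean. The red points lie below the grey ones for the first 8 genes and for the last, CHLREDRAFT_189430, which did not pass the test. The gap is widest for the light-harvesting gene CHLREDRAFT_187025 (68.0 to 86.1 CPM at 12 h, 680 to 1047 CPM in control).

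The reaction center and the oxygen-evolving side moved in the same direction by smaller amounts. Photosystem I reaction center subunit III (CHLREDRAFT_130914) had 507, 557 and 578 CPM at 12 h, against 2800, 2189 and 2505 CPM in control, a difference of -2.19 ± 0.18. The 3 oxygen-evolving enhancer proteins shield the manganese cluster of photosystem II that splits water. Enhancer protein 3 (CHLREDRAFT_153656) differed by -2.13 ± 0.16, enhancer protein 1 (CHLREDRAFT_130316) by -1.78 ± 0.15 and enhancer protein 2 (CHLREDRAFT_33411) by -1.56 ± 0.17, all with an edgeR adjusted p of 9.1e-09 or less. Enhancer protein 1 still had 958, 1043 and 1111 CPM at 12 h, against 3612, 3137 and 3932 CPM in control. The photosystem II stability/assembly factor (CHLREDRAFT_112806) had 62.7, 55.7 and 53.6 CPM at 12 h, against 74.7, 72.4 and 105 CPM in control, a difference of -0.55 ± 0.18 (edgeR adjusted p = 0.013). That call was lost in edgeR's test when control replicate 3 was left out (-0.32, edgeR adjusted p = 0.17) or 12 h replicate 3 was (-0.50, edgeR adjusted p = 0.054).

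In carbon fixation, the small chain of ribulose bisphosphate carboxylase (CHLREDRAFT_82986), the enzyme that fixes CO2, had 304, 315 and 332 CPM at 12 h, against 775, 695 and 1067 CPM in control, and fell by 1.41 on the log2 scale (edgeR adjusted p = 2.3e-08). The 2 low-CO2-inducible genes of the list did not pass the test. The low-CO2-inducible protein CHLREDRAFT_148921 had 1048, 1132 and 1111 CPM at 12 h, against 972, 924 and 1083 CPM in control. The low-CO2-inducible chloroplast envelope protein CHLREDRAFT_189430 had 380, 375 and 385 CPM at 12 h, against 449, 403 and 430 CPM in control, with a difference of -0.17 ± 0.26. Its groups did not overlap.

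The same 10 genes stood higher at 12 h than at 8 h, where 8 passed the test upwards with a median log2 fold change of 1.62, against a background of 15.0% of genes higher and 11.2% lower at 12 h than at 8 h. The light-harvesting gene CHLREDRAFT_187025 averaged 79.4 ± 9.92 CPM at 12 h and 10.7 ± 1.33 CPM at 8 h, and CHLREDRAFT_136294 averaged 327 ± 33.6 CPM at 12 h and 52.9 ± 6.56 CPM at 8 h (SD, n = 3 each). The differences of 2.89 and 2.63 on the log2 scale passed edgeR's test. Against 24 h, 6 of the 10 were lower at 12 h and 1 was higher, with a median of -0.69, where 8.93% of all genes were lower and 9.55% higher. CHLREDRAFT_187025 averaged 164 ± 21.0 CPM and CHLREDRAFT_136294 averaged 546 ± 94.2 CPM at 24 h (SD, n = 3). The exception was the chloroplast envelope protein CHLREDRAFT_189430, which was higher at 12 h than at 24 h by 1.47 on the log2 scale. These comparisons use the same 12 h libraries and are not independent of each other. The times also differ in the age of the culture and in the time of day under alternating light and dark. A course under salt cannot be told apart from these.

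Of 8 genes for protein folding, cell death and redox, 5 were upregulated and 3 downregulated. HSP70B (CHLREDRAFT_126835), the chaperone of the chloroplast stroma, had 269, 287 and 285 CPM at 12 h, against 76.5, 110 and 157 CPM in control, a difference of 1.29 ± 0.19 (edgeR adjusted p = 2.4e-06). BAX inhibitor 1 (CHLREDRAFT_139760), a membrane protein that restrains cell death in plants and animals, had 96.0, 100.4 and 96.7 CPM at 12 h, against 43.3, 40.8 and 33.4 CPM in control, a difference of 1.32 ± 0.16. Both genes were also higher at 12 h than at 24 h, by 0.71 and 0.67 on the log2 scale. *P5CS2* (CHLREDRAFT_130812), the synthetase that starts proline synthesis, had 203, 229 and 229 CPM at 12 h, against 136, 136 and 132 CPM in control, a difference of 0.71 ± 0.16 (edgeR adjusted p = 0.00047).

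The 2 genes named as BiP, the chaperone of the endoplasmic reticulum lumen, moved in opposite directions. BiP CHLREDRAFT_133650 had 17.5, 15.0 and 14.2 CPM at 12 h, against 2.19, 0.65 and 3.13 CPM in control, a difference of 2.98 ± 0.31 (edgeR adjusted p = 8.3e-09). BiP CHLREDRAFT_133859 had 88.4, 90.5 and 78.7 CPM at 12 h, against 192, 177 and 165 CPM in control, a difference of -1.05 ± 0.15 (edgeR adjusted p = 1.2e-06). Summed over both genes, the 12 h samples had 106, 105 and 92.9 CPM and the control samples 194, 178 and 168 CPM, so the sum was lower in every salt sample. How reads that match both genes were counted was not given in the sources used here. Both were below their 8 h level, by 2.01 and 1.58 on the log2 scale, and at 2 h they had averaged 495 and 1152 CPM.

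Among the redox enzymes, glutathione S transferase (CHLREDRAFT_195543), which joins glutathione to reactive compounds, rose, and both peroxide-removing enzymes fell. The transferase had 111, 94.9 and 98.1 CPM at 12 h, against 35.2, 33.6 and 38.5 CPM in control, 2.83-fold higher (edgeR adjusted p = 2.0e-10). Catalase (CHLREDRAFT_190083) had 15.1, 15.1 and 11.2 CPM at 12 h, against 90.2, 81.9 and 87.9 CPM in control, a difference of -2.65 ± 0.20 (edgeR adjusted p = 9.3e-12). L-ascorbate peroxidase (CHLREDRAFT_192806) had 230, 228 and 224 CPM at 12 h, against 394, 331 and 377 CPM in control, a difference of -0.69 ± 0.18 (edgeR adjusted p = 0.0024).

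Of 4 genes for sugars of the cell wall, 3 were upregulated. *RUBY* (CHLREDRAFT_196816), a galactose oxidase whose homolog in *Arabidopsis thaliana* strengthens the cohesion of pectin, had 147, 158 and 165 CPM at 12 h, against 74.0, 72.7 and 72.5 CPM in control, a difference of 1.10 ± 0.14 (edgeR adjusted p = 3.2e-07). The glucosyltransferase *UGT-80* (CHLREDRAFT_154976) had 23.7, 29.9 and 24.0 CPM at 12 h, against 8.89, 8.69 and 6.59 CPM in control, a difference of 1.68 ± 0.21. UDP-glucose 6-dehydrogenase (CHLREDRAFT_185081) rose by 0.49 ± 0.14. *UGP2* (CHLREDRAFT_157049), a UDP-glucose pyrophosphorylase, had 202, 235 and 227 CPM at 12 h, against 298, 297 and 290 CPM in control. Its groups did not overlap, and its difference of -0.41 ± 0.22 did not pass the test in the fit of all libraries (edgeR adjusted p = 0.12) but passed in a fit of these 6 libraries alone (adjusted p = 0.015) and in one without the 2 h libraries (adjusted p = 0.034).

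**Figure D3:**
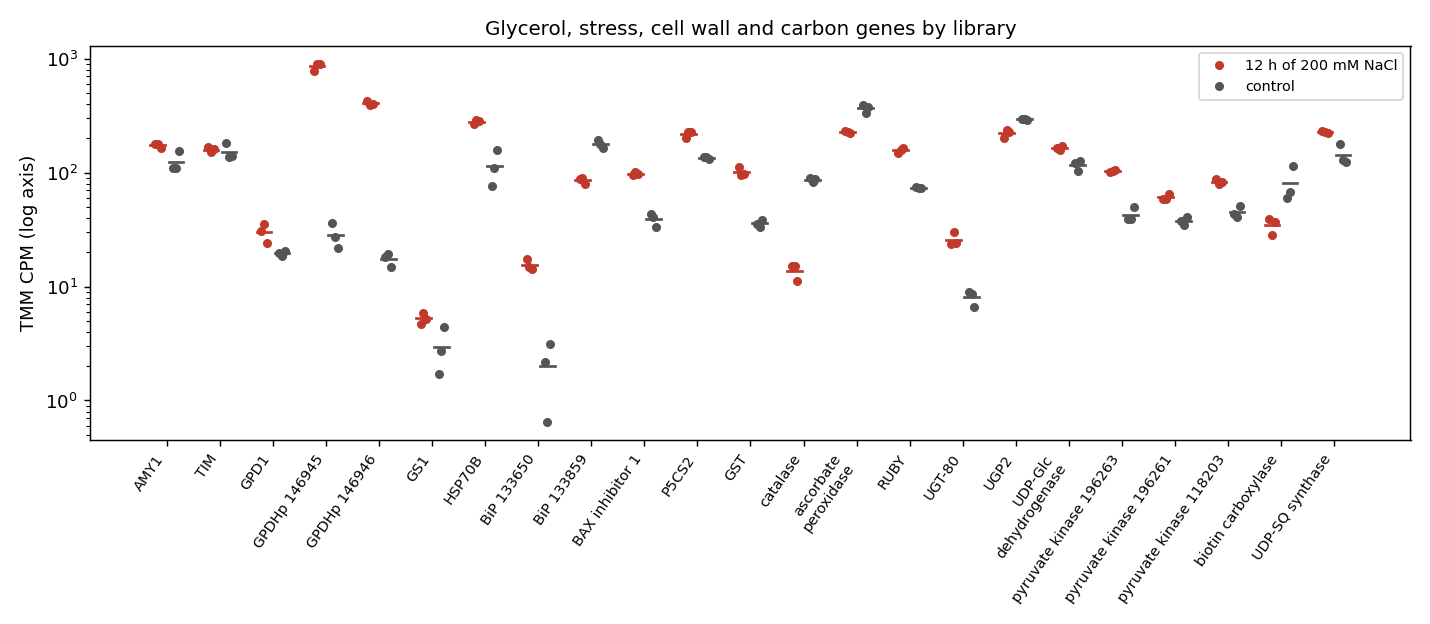
The level of 23 genes for glycerol and starch, stress and redox, cell wall sugars and carbon metabolism is plotted by library (TMM CPM, log axis), with the 3 samples at 12 h in red to the left of the 3 control samples in grey and a line at each mean. The widest gap is that of the 2 *GPDHp* genes (787 to 901 CPM at 12 h against 21.8 to 36.4 CPM in control for CHLREDRAFT_146945), and the 2 BiP genes lie on opposite sides of their controls.

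*EF1ALPHA* (CHLREDRAFT_132905), the elongation factor gene that the study used as its qRT-PCR reference, had 8146, 8168 and 8011 CPM at 12 h, against 6979, 6878 and 6798 CPM in control. Every salt sample was above every control sample. The difference of 0.24 ± 0.29 did not pass the test in the fit of all libraries (edgeR adjusted p = 0.52), nor in any other setting tried.

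Transcription factors (TFs) bind DNA and set which genes are read. The study listed 113 TFs by similarity to TFs of *A. thaliana*, chosen because they changed in these libraries, so their counts are not independent evidence. Of these, 112 were tested, and 51 were upregulated and 23 downregulated at 12 h, with a median log2 fold change of 0.60. These are 45.5% up and 20.5% down, against 25.7% and 24.5% of all genes tested. In the C3H zinc finger family, many members of which bind RNA, 12 of 19 tested were upregulated and 3 downregulated. In the MYB family 9 of 18 were upregulated and 5 downregulated, the latter 27.8% and near the share of all genes. All 3 bHLH genes and 4 of 5 C2H2 zinc finger genes were upregulated. The AP2/ERF family, known in land plants for responses to stress and ethylene, had 1 of 10 up and 2 down.

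**Figure D4:**
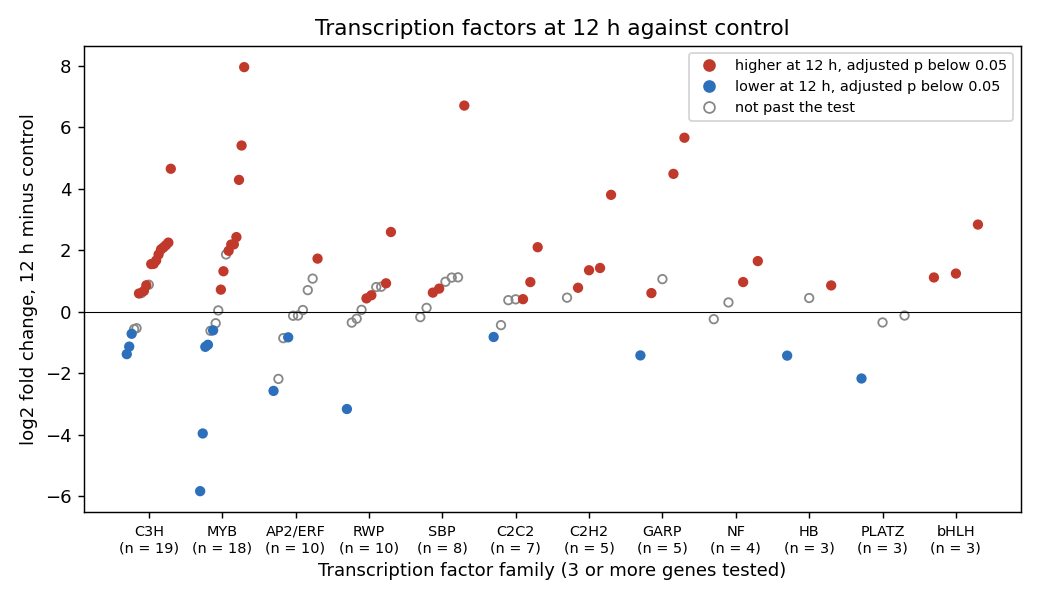
Each point is a TF gene of a family with 3 or more genes tested, with its log2 fold change, 12 h minus control, on the y axis and the families along the x axis. Red points are upregulated and blue points downregulated DEGs, open points did not pass the test, and the red points outnumber the blue ones in the C3H (12 against 3) and MYB (9 against 5) families. The highest MYB and SBP points have 0 counts in every control library, so their height depends on the fit.

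MYB genes gave some of the widest TF changes in both directions. CHLREDRAFT_107210 had 31.1, 35.2 and 32.5 CPM at 12 h, against 0.91, 2.01 and 2.15 CPM in control, a difference of 4.28 ± 0.20 (edgeR adjusted p = 2.1e-15). CHLREDRAFT_205725, the homolog of *A. thaliana* MYB88, a regulator of stomatal cell division there, had 24.4, 19.2 and 17.5 CPM at 12 h, against 3.71, 3.25 and 4.44 CPM in control, a difference of 2.42 ± 0.17 (edgeR adjusted p = 3.3e-12). At 12 h it was below its 8 h level by 0.86 on the log2 scale. The homolog of *A. thaliana* CDC5 (CHLREDRAFT_129649), a component of the spliceosome, rose by 0.71 ± 0.16.

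Of the TFs with *A. thaliana* homologs in the circadian clock, 3 MYB genes picked after their values were seen are given here. CHLREDRAFT_112628, the homolog of CCA1, a morning gene of that clock, had 1.54, 1.62 and 1.66 CPM at 12 h, which is 91 counts in all, against 0 counts in every control library. With a floor of 3 counts per library it was at least 8.69-fold higher at 12 h. Its mean was 2.48 CPM at 8 h, 1.61 CPM at 12 h and 0 CPM at 24 h. CHLREDRAFT_123164, a homolog of RVE8, another MYB gene of the clock, went the other way, with 0, 0 and 0.05 CPM at 12 h, against 0.37, 1.71 and 2.02 CPM in control (edgeR adjusted p = 0.0049). CHLREDRAFT_168936, also matched to RVE8, had 18.1, 16.9 and 16.3 CPM at 12 h, against 11.5, 18.8 and 19.6 CPM in control, and its groups overlapped. The part of the time of day in these values was not tested.

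Among other families, a bHLH gene that the authors assembled, matched to *A. thaliana* AT5G01310, had 396, 481 and 510 CPM at 12 h, against 58.4, 80.1 and 56.7 CPM in control, a difference of 2.83 ± 0.20 (edgeR adjusted p = 2.6e-12). It was also above 8 h by 1.29 and above 24 h by 1.73 on the log2 scale. An assembled CONSTANS-like gene, the homolog of *A. thaliana* COL4, had 219, 216 and 233 CPM at 12 h, against 50.6, 54.6 and 51.5 CPM in control, a difference of 2.09 ± 0.13. The only WRKY gene of the list, CHLREDRAFT_205718, had 56.9, 59.0 and 57.2 CPM at 12 h, against 36.1, 33.8 and 29.0 CPM in control, a difference of 0.81 ± 0.16 (edgeR adjusted p = 0.00015). The homolog of the *A. thaliana* histone demethylase REF6 (CHLREDRAFT_193126) rose by 0.77 ± 0.14.

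The most abundant TF that fell was the only cold shock domain gene of the list, CHLREDRAFT_126810, whose *A. thaliana* homolog CSP1 is an RNA chaperone. It had 64.0, 73.8 and 69.9 CPM at 12 h, against 608, 431 and 446 CPM in control, a difference of -2.84 ± 0.18 (edgeR adjusted p = 2.9e-13). At 12 h it was above its 8 h level by 3.90 on the log2 scale and below its 24 h level by 1.80, and both differences passed the test. The RWP gene CHLREDRAFT_195860 had 5.62, 5.26 and 5.23 CPM at 12 h, against 59.4, 49.5 and 36.2 CPM in control, a difference of -3.17 ± 0.22, while RWP gene CHLREDRAFT_195840 rose by 2.59 ± 0.27. The homolog of *A. thaliana* ARR1 (CHLREDRAFT_113139), a response regulator of cytokinin signalling, fell by 1.43 on the log2 scale.

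Beyond the genes the study names, the 69 identifiers that begin with DAA had a higher summed level at 12 h. The files, the paper and the reference table give them no annotation. Whether they lie in the nuclear genome or in that of an organelle is therefore not known here, and in RNA selected for poly(A) tails the level of an organelle transcript also depends on its tail, so their values and those of the AAB identifiers cannot be read as transcript abundance alone. Their summed level was 704, 1309 and 385 CPM in the 12 h samples, against 25.2, 27.6 and 29.4 CPM in control, so that the means differed 29.2-fold. All 3 salt samples lay above all 3 control samples, and the salt samples themselves spread widely. Of the 67 tested, 62 were upregulated, and the 5 that did not pass had higher means at 12 h. Most had few counts in control. With at least 10 counts required in each of the 6 libraries, 7 were left, all upregulated. The others could enter the test through salt libraries where they are high. The numbers passing, here and against 8 h, are therefore not independent evidence of a direction. The control libraries had 0 counts for 16 of the 67, so that the median log2 fold change was 6.18 as fitted and 4.71 with those 16 set to a floor of 3 counts per library.

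The order of the 12 h libraries in the sum was not that of every DAA identifier, and DAA00957 had 63.9, 53.9 and 14.8 CPM at 12 h, against 4.14, 1.65 and 0.98 CPM in control. DAA00964, the one with the most control counts, had 50.8, 74.5 and 28.9 CPM at 12 h, against 4.81, 4.67 and 6.72 CPM in control, a difference of 3.25 ± 0.43 (edgeR adjusted p = 4.4e-07). DAA01471 had 68.3, 139 and 39.7 CPM at 12 h, against 2.13, 2.48 and 0.65 CPM in control, a difference of 5.53 ± 0.67. Replicate 2 was a median of 3.43 times replicate 3 over the 62 DAA identifiers with at least 10 counts in every 12 h library. Leaving out 1 of the 6 libraries at a time gave 58 to 62 upregulated DAA identifiers.

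The summed DAA level was higher at 12 h than at 8 h. It averaged 799 ± 469 CPM at 12 h and 47.0 ± 16.4 CPM at 8 h (SD, n = 3 each), and 65 of the 67 were higher at 12 h by edgeR's test, against 15.0% of all genes. At 24 h it averaged 690 ± 214 CPM. Between 12 h and 24 h, 0 of the 67 passed edgeR's test, 0 had an unadjusted p below 0.05 and 0 passed with DESeq2.

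**Figure D5:**
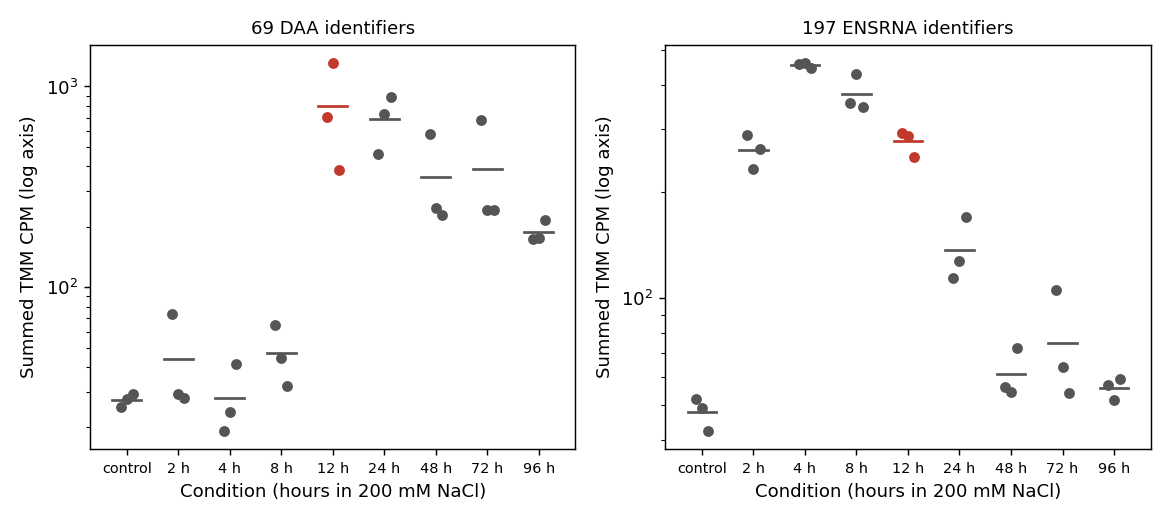
The summed level of the 69 DAA identifiers (left) and of the 197 ENSRNA identifiers (right) is plotted for every library by condition (TMM CPM, log axis), with the 12 h samples in red, the other conditions in grey and a line at each mean. The DAA sum was 385 to 1309 CPM at 12 h and 32.1 to 64.6 CPM at 8 h, and the ENSRNA sum at 12 h was below that at 4 h and 8 h and above that of control.

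The 197 ENSRNA identifiers, a form that Ensembl uses for noncoding RNA genes, summed to 292, 288 and 251 CPM at 12 h, against 52.2, 49.0 and 42.3 CPM in control. The means differed 5.79-fold. Of the 32 tested, 12 were upregulated and 4 downregulated, with a median log2 fold change of 0.02, so the sum rested on few members. ENSRNA049446495 had 94.9, 94.0 and 87.0 CPM at 12 h, against 1.22, 0.83 and 0 CPM in control, a difference of 7.04 ± 0.41 (edgeR adjusted p = 1.2e-13). ENSRNA049446240 differed by 5.32 ± 0.34 and ENSRNA049446477 by 5.38 ± 0.52. The 8 AAB identifiers summed to 80.2, 85.9 and 74.7 CPM at 12 h, against 141, 129 and 81.3 CPM in control, and the groups overlapped. Of these, AAB93440 fell by 1.27 and AAB93444 by 2.24 on the log2 scale, and AAB93447 rose by 2.09. Among the 3358 tested genes that the authors assembled beyond the annotation, 797 were upregulated and 631 downregulated. These are 23.7% and 18.8%, against 25.7% and 24.5% of all genes tested.

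Some genes were near 0 in one group. There were 26 genes with at most 3 counts in every control library and at least 50 in every 12 h library, and 15 with the reverse. The largest fitted differences of the named set fell on such genes. The gene with the largest fitted rise, which the authors assembled beyond the annotation, had 25.1, 21.0 and 24.4 CPM at 12 h, against 0 counts in every control library, and was at least 127-fold higher with a floor of 3 counts per library. CHLREDRAFT_188399 had 0 counts in every 12 h library, against 33.3, 21.4 and 17.1 CPM in control, and was at least 149-fold lower. With counts in both groups, CHLREDRAFT_191480 had 313, 324 and 326 CPM at 12 h, against 0.91, 0.30 and 1.17 CPM in control, a difference of 8.66 ± 0.31 (edgeR adjusted p = 1.6e-17). CHLREDRAFT_192728 (CHLRE_05g240300v5 in assembly v5.5) had 0, 0.12 and 0.33 CPM at 12 h, against 434, 394 and 434 CPM in control, a difference of -11.31 ± 0.56 (edgeR adjusted p = 2.1e-14). The sources used here give these genes no function.

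Abundant transcripts changed as well. CHLREDRAFT_185533 (CHLRE_01g066917v5) had 29.0, 41.2 and 42.1 CPM at 12 h, against 7429, 5761 and 7554 CPM in control, a difference of -7.53 ± 0.42 (edgeR adjusted p = 3.6e-14), or 185-fold lower. It had the highest control level of the downregulated DEGs with a log2 fold change below -1. The next 4 by control level differed by -1.40 to -2.06 on the log2 scale. Of the 5 upregulated DEGs with the highest level at 12 h and a log2 fold change above 1, CHLREDRAFT_129639 (CHLRE_03g206600v5) changed the most, with 1668, 1703 and 1709 CPM at 12 h, against 152, 140.5 and 177 CPM in control, a difference of 3.44 ± 0.20.

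A smaller set of genes stood apart at 12 h from control, 8 h and 24 h alike. There were 294 genes higher and 163 lower at 12 h in all 3 comparisons, which share the 12 h libraries, and these are 1.79% and 0.991% of the genes tested. CHLREDRAFT_186304 (CHLRE_10g425050v5) had 979, 1023 and 1073 CPM at 12 h, against 20.4, 16.5 and 10.9 CPM in control, a difference of 6.01 ± 0.23. It was also above 8 h by 2.10 and above 24 h by 1.77 on the log2 scale. CHLREDRAFT_191592 (CHLRE_16g679750v5) had 6.17, 4.45 and 7.94 CPM at 12 h, against 496, 380 and 421 CPM in control, and lay below 8 h by 3.10 and below 24 h by 2.75. Of all genes tested, 2473 were higher and 1848 lower at 12 h than at 8 h, and 1571 were higher and 1468 lower at 12 h than at 24 h. The calls against 8 h were 4304 higher and 4311 lower when the 12 h and 8 h libraries were fitted alone. The count lower than at 24 h was 967 without 12 h replicate 3 and 930 without 24 h replicate 3.

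The study's cluster 2, which its text ties to expression at 12 h, holds 554 genes, of which 553 were tested. At 12 h, 383 of them were upregulated and 18 downregulated against control, with a median log2 fold change of 0.90. The cluster was formed on these libraries, and this is a description of it. Scaled to the highest library of each gene, its mean FPKM was 0.630 ± 0.039 at 12 h, against 0.344 ± 0.031 in control, 0.407 ± 0.004 at 8 h and 0.724 ± 0.073 at 24 h (SD, n = 3 each). Against 24 h, 16 of its genes were higher and 112 lower at 12 h. In cluster 1, with 937 genes, 393 were downregulated and 15 upregulated at 12 h, and the scaled mean was 0.424 ± 0.007 at 12 h, against 0.693 ± 0.037 in control.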

How the data were processed

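The authors aligned the filtered reads with HISAT2 2.0.5, assembled further transcripts with StringTie 1.3.3b, counted reads per gene with featureCounts and deposited whole-number counts without normalization. The authors also made and deposited FPKM values from the counts and gene lengths, which were used here only for levels per length. Genome build, strand setting and the treatment of reads with several matches are not given in the sources used here, so no coordinates are printed, and genes with similar copies are uncertain.

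After filterByExpr and TMM scaling, 1 quasi-likelihood model of the 27 libraries and 9 conditions was fitted in edgeR 4.0.16 (R 4.3.3), and a DEG had a two-sided p below 0.05 after Benjamini-Hochberg adjustment over all genes tested. The SE was the log2 fold change divided by the root of the F statistic. The fit was tested on simulated data. Total counts of 17126549 to 22528201 in the 6 libraries set the counting error, and the spread between replicates sets the precision. Tables and figures were made in Python 3.11.15. The replicate number was not used as a pairing in the main fit.

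The members and lists were chosen with earlier results of these data known. Genes named are the 41 of the paper's text, the 8 highest and 8 lowest log2 fold changes among DEGs without overlap and with a mean of at least 100 counts, the 5 and 5 most abundant DEGs with an absolute log2 fold change above 1, and up to 5 and 5 that differed at 12 h from control, 8 h and 24 h. Of these rule-chosen genes, which have no annotation, only some are printed. TFs other than those in the paper's text, and DAA, ENSRNA and AAB identifiers, were picked after their values were seen. A list by gene symbol could not be used, because the reference table of assembly v5.5 matched 12541 of 19267 identifiers but gave locus tags only. No promoter or protein sequence was used here. Alternative settings were RLE size factors, DESeq2 1.42.0, no filter, a minimum of 10 counts in each of the 6 libraries, a fit of those 6, a fit without 2 h, a replicate block, an absolute log2 fold change above 1, and leaving out each replicate.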

Additional observations from a re-analysis of the deposited data

Results flagged for a closer look

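Of the named genes, 5 were called in opposite directions against control at 12 h and at 8 h, and the difference between the times passed edgeR's test. *AMY1* (CHLREDRAFT_173725) was at 0.49 at 12 h and -0.45 at 8 h on the log2 scale, a difference of 0.94 (edgeR adjusted p = 6.9e-05). *P5CS2* (CHLREDRAFT_130812) was at 0.71 at 12 h and -0.40 at 8 h, a difference of 1.11 (edgeR adjusted p = 4.8e-06). UDP-sulfoquinovose synthase (CHLREDRAFT_27658) was at 0.67 at 12 h and -1.36 at 8 h, a difference of 2.03 (edgeR adjusted p = 2.3e-10). BiP CHLREDRAFT_133859 was at -1.05 at 12 h and 0.53 at 8 h, a difference of -1.58 (edgeR adjusted p = 5.4e-09). The abundant gene CHLREDRAFT_24120 (CHLRE_04g223100v5) was at 1.32 at 12 h and -4.24 at 8 h, a difference of 5.56 (edgeR adjusted p = 7.6e-16). Both effects share the control libraries. Groups of 3 samples were not searched for outlying samples. The difference itself between 12 h and 8 h passed the test for 50 of the 77 named genes, and that between 12 h and 24 h for 38. Only those with calls in opposite directions against control are given singly here, a criterion chosen after the values were seen.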

How the results depend on the processing

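Against control, the alternatives gave 3725 to 4463 upregulated and 3351 to 4533 downregulated genes, apart from the fold threshold, with which 2834 and 2723 remained. With a replicate block the counts were 4237 and 3960. Same-numbered libraries of 12 h and control correlated by 0.168, -0.017 and 0.025 in their deviations from the group means. Only the first pair was each other's best match. Against 8 h the values were 0.092, -0.006 and 0.103, where replicates 1 and 3 were best matches, and against 24 h -0.029, 0.008 and -0.069. With groups of 3 libraries these values cannot decide whether the number marks a pairing. The split of calls was 51.2% up with TMM, 48.1% with RLE size factors and 47.7% with DESeq2.

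A fit of only the 6 libraries compared called 4304 genes up and 4311 down between 12 h and 8 h, in place of 2473 and 1848, and the cause was not tested. Requiring an absolute log2 fold change above 1 by construction left 1110 up and 1012 down against 8 h, 866 up and 510 down against 24 h, 2 of the glycerol genes and 1 of the central carbon and lipid genes up, 15 TFs down, 238 genes of cluster 1 down and 243 of cluster 2 up. With at least 10 counts in each of the 6 libraries, 7 of the 7 DAA identifiers left and 6 of the 11 ENSRNA identifiers left were up. Leaving out 1 replicate gave 3859 to 4153 up and 3351 to 3563 down against control, 1902 to 2150 up and 1267 to 1433 down against 8 h, and 1088 to 1873 up and 930 to 1583 down against 24 h. It gave 7 to 8 photosynthesis genes down, 47 to 54 TFs up and 17 to 20 down, 9 to 12 ENSRNA identifiers up, 298 to 352 cluster 1 genes down and 342 to 386 cluster 2 genes up.

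Over 77 named genes and 14 settings, 1033 of 1061 values kept their direction and their side of the threshold. Apart from the fold threshold, 8 values lost and 3 gained the call. The 2 genes that changed sign never passed the test. They were *TIM* (CHLREDRAFT_26265), at -0.00099 with DESeq2 and -0.0010 with RLE size factors, and CHLREDRAFT_168936, at -0.029 with DESeq2, -0.029 with RLE size factors and -0.12 to 0.21 with a replicate left out. Counts limit genes with a few reads per library, where a fitted fold change depends on the fit.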
